A study of Mus musculus with 4 samples.

Results

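The genes described are 8 tubulin isotypes of mouse small-intestinal organoids, with knockout of Cbl and Cblb set against control. They are the alpha tubulin genes Tuba1a, Tuba1b, Tuba1c and Tuba4a and the beta tubulin genes Tubb2a, Tubb2b, Tubb5 and Tubb6. They were taken by gene symbol from the 16 alpha and beta tubulin genes among the 31040 features of the count matrices. Tuba1a was selected on a measured value, its higher level in knockout than in control goblet-like cells of these same libraries, so its values there are given as a description with no test. The other 8 alpha and beta genes are named where the balance within a family needs them.

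Knockout cultures were organoids with the floxed genes Cbl and Cblb deleted, and there were 2 of them, 1 from each of 2 mice. They carried Cbl flox/flox and Cbl-bflox/flox alleles with the R26Cre ERT2 driver, a Cre recombinase that acts when 4-hydroxytamoxifen is present, and they received 400 nM of that agent over 3 days. The 2 control cultures, 1 from each of the same mice, carried all the same alleles and were grown for the same 3 days without the agent. The mice were 10 weeks old, and the organoids were grown from their crypts. Deletion and exposure to 4-hydroxytamoxifen go together in this design and cannot be told apart. Cbl and Cblb encode ubiquitin ligases that restrain receptor tyrosine kinases.

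Microtubules are built from dimers of one alpha and one beta tubulin, and mammals encode several near-identical isotypes of each. Isotypes are used in different mixtures by different cell types: Tuba1a, Tubb2b and Tubb3 are best known from neurons, where mutations in TUBA1A and TUBB2B cause malformations of the human cortex, while Tuba1b and Tubb5 are the broadly used isotypes of dividing cells. In the intestine, stem and progenitor cells divide with a microtubule spindle, whereas enterocytes and secretory cells use microtubules mainly for polarity and for the traffic of vesicles and granules. Free tubulin dimers shorten the life of tubulin messengers, so the summed messenger level is under feedback in animal cells.

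In GENCODE M21, on build GRCm38, Tuba1b (ENSMUSG00000023004) and Tuba1a (ENSMUSG00000072235) lie on the minus strand of chromosome 15, at chr15:98931425-98934565 and chr15:98949837-98953703, with 15271 bases between them. Tuba1c (ENSMUSG00000043091) follows on the plus strand at chr15:99029891-99038110, 76187 bases from Tuba1a. Tubb2a (ENSMUSG00000058672) and Tubb2b (ENSMUSG00000045136) are a second neighbouring group on the minus strand of chromosome 13, at chr13:34074274-34078007 and chr13:34126748-34130466, 48740 bases apart. Tuba4a (ENSMUSG00000026202, chr1:75214228-75219865, minus strand), Tubb5 (ENSMUSG00000001525, chr17:35833921-35838306, minus strand) and Tubb6 (ENSMUSG00000001473, chr18:67390717-67402749, plus strand) stand alone. Tuba4a overlaps Stk16 on the opposite strand. The annotated gene Gm49450 overlaps both Tuba1a and Tuba1b on their own strand and is not among the features counted.

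Copies this alike can exchange reads. Of the stretches of 60 bases in the last 500 bases of the longest coding transcript, 53.7% were shared with another tubulin gene in Tuba1a, 50.3% in Tuba1b, 67.3% in Tuba1c and 37.4% in Tubb2a, against 0% in Tubb2b, Tuba4a, Tubb5 and Tubb6. Over the whole transcript the shares were 49.0% in Tuba1a, 62.1% in Tuba1b, 58.6% in Tuba1c, 43.3% in Tubb2a and 31.7% in Tubb2b, against 0% in Tuba4a, Tubb5 and Tubb6. Which end of a transcript was tagged is not given in the sources used here, so values of Tuba1a, Tuba1b, Tuba1c, Tubb2a and Tubb2b are less certain than those of the other members.

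Promoters are shown for the member with the goblet-like difference, Tuba1a, and for Tuba1b and Tubb5, whose levels followed each other most closely across cell classes. Each run is the RefSeq sequence of GRCm38.p6 on the minus strand, 300 bases 5′ to 3′ that cover 250 bases before RefSeq's start of the gene and 50 bases from it on. They are chr15:98953452-98953751 for Tuba1a, chr15:98934341-98934640 for Tuba1b and chr17:35838252-35838551 for Tubb5. The RefSeq start lies inside the gene as GENCODE M21 draws it, by 202 bases in Tuba1a, 175 in Tuba1b and 5 in Tubb5, so part of each window falls within the GENCODE gene. Capitals mark the 2 motifs searched on both strands, CCAAT, the core of sites for the factor NF-Y, and GGGCGG, the GC box of Sp factors. Neither motif overlaps the other, and a match on the opposite strand is read here as ATTGG or CCGCCC.
Tuba1a promoter: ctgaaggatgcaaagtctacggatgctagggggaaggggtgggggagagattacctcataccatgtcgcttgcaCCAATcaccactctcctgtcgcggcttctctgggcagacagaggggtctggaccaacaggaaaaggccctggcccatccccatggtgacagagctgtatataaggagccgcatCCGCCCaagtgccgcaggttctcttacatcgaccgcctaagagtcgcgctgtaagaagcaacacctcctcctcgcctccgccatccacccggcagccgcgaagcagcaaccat
Tuba1b promoter: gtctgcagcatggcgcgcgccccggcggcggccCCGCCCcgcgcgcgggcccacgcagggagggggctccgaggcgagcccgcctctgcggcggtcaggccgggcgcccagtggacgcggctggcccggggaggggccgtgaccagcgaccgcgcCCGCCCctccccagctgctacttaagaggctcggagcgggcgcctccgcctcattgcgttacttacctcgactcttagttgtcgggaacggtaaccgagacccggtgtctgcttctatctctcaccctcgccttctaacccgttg
Tubb5 promoter: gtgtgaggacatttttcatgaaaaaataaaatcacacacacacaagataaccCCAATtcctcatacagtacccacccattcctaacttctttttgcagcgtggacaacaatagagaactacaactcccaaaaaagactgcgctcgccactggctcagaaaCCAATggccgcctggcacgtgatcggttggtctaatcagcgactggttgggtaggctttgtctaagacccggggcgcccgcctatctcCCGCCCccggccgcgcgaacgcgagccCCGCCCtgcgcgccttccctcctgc
The Tuba1a window held 1 CCAAT, 176 bases upstream of the RefSeq start, and 1 GC box, 63 bases upstream of it, both inside the gene in GENCODE M21. Tuba1b held no CCAAT and 2 GC boxes in a window of 72.7% G and C, against 59.0% in Tuba1a and 55.0% in Tubb5. Tubb5 held 2 CCAAT motifs and 2 GC boxes. Of all 32851 promoter windows of the same length, 37.4% held CCAAT and 35.7% held GGGCGG, so the matches describe these windows and mark no site. The neighbouring genes Tuba1a and Tuba1b thus differed in both counts.

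Droplet libraries gave 1702 and 1983 barcodes in knockouts 1 and 2, against 1208 and 709 in controls 1 and 2, with 22139560 to 35592468 unique molecular identifiers (UMIs, each standing for one captured transcript) per library. After filters 5359 cells remained in 16 clusters, and 2 barcodes were shared between libraries. Clustering was done without 25 tubulin genes, so that no member placed a cell. Classes were named from marker genes: 321 and 134 stem-like cells in the knockouts, against 169 and 30 in the controls, 621 and 713 cycling-like against 351 and 173, 116 and 254 enterocyte-like against 174 and 249, 155 and 275 goblet-like against 179 and 90, 78 and 119 Paneth-like against 60 and 30, 69 and 84 enteroendocrine-like against 56 and 11, and 10 and 9 tuft-like against 8 and 4. The remaining clusters were left unnamed. Summed markers of immune, mesenchymal, endothelial, glial and erythroid cells were at most 2.93 CPM in any library, where CPM is the UMIs of a gene scaled to a common total. Cbl was at 12.3 and 10.5 CPM in the knockouts, against 17.0 and 19.9 CPM in the controls, and Cblb at 3.35 and 0.464 CPM against 8.51 and 3.93 CPM. Transcripts can be counted from outside a deleted exon, so this checks the labels only in part. Levels below are CPM of all UMIs summed over the cells of a class in a library. Each transcript is tagged once, so CPM is not divided by length.

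Tuba1a was the isotype with the widest range across cell classes. Averaged over the 4 libraries it stood at 1337 CPM in tuft-like cells, chemosensory cells of the epithelium, and at 467 CPM in enteroendocrine-like cells, the hormone-secreting class, and these neighbours in the order did not overlap. Goblet-like cells, which secrete mucus, followed at 52.7 CPM and Paneth-like cells, which secrete antimicrobial peptides, at 39.4 CPM, with overlapping ranges. Cycling-like, enterocyte-like and stem-like cells were lowest, at 9.75, 9.19 and 8.02 CPM, and could not be told apart. In enteroendocrine-like cells Tuba1a was at 482 and 584 CPM in the knockouts, against 577 and 225 CPM in the controls. In tuft-like cells it was at 1013 and 1082 CPM in the knockouts, against 1899 and 1356 CPM in the controls, from 46 to 57 UMIs and 35 to 90 UMIs. The secretory and chemosensory classes thus held most Tuba1a, with every library of each above every library of the absorptive and dividing classes.

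Tuba1b and Tubb5 had another order, with most transcripts in dividing cells. Tuba1b averaged 740 CPM in cycling-like cells, above every other class, and 54.2 CPM in enterocyte-like cells, below every other class. Stem-like cells followed cycling-like ones at 396 CPM, and goblet-like, tuft-like, enteroendocrine-like and Paneth-like cells lay between 300 and 125 CPM, each overlapping its neighbour. Tubb5 averaged 1288 CPM in cycling-like cells, 792 CPM in stem-like cells and 26.2 CPM in enterocyte-like cells, the lowest class without overlap. Across the 24 sums of 6 classes in 4 libraries, log levels of Tuba1b and Tubb5 followed each other with r = 0.94 and those of Tubb2b and Tubb5 with r = 0.81, while Tuba1a and Tuba1b had r = -0.09. These correlations are descriptions: the sums share libraries and depth, and they leave out tuft-like cells.

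Tuba1c, Tuba4a and Tubb4b were spread more evenly. Tuba1c averaged 272 CPM in cycling-like cells, above all other classes, 197 CPM in enterocyte-like cells and 87.2 CPM in enteroendocrine-like cells. Tuba4a, an alpha isotype encoded without the terminal tyrosine of other alpha tubulins, lay between 115 CPM in tuft-like and 208 CPM in enteroendocrine-like cells with every neighbour overlapping. Tubb4b, a broadly expressed beta tubulin that is not a member, lay between 379 and 1488 CPM and was the main beta tubulin of enterocyte-like cells. Of the alpha and beta genes outside the members, Tubb4a reached at most 9.12 CPM, in enteroendocrine-like cells, and Tuba8 and Tuba3b at most 2.26 CPM. Tuba3a and Tubb1 had 0 UMIs in every library, which allows up to 0.137 CPM over all cells.

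The remaining beta members were unlike each other. Tubb2a was highest in enterocyte-like cells at 116 CPM, overlapping enteroendocrine-like cells at 86.8 CPM, and lowest in stem-like cells at 20.9 CPM. Tubb2b, its neighbour on chromosome 13, was highest in tuft-like and enteroendocrine-like cells at 300.0 and 200.3 CPM and lowest in enterocyte-like cells at 7.03 CPM. So the pair had their lowest levels in different classes. Tubb2b also differed by mouse, at 97.0 and 48.5 CPM in cycling-like cells of knockouts 1 and 2 and 99.1 and 65.1 CPM in those of controls 1 and 2, so that both mouse 1 libraries stood above both mouse 2 libraries. Tubb6, a beta tubulin that loosens the microtubule network when overproduced in cultured cells, was near the detection limit in every class, with at most 2.57 CPM in any library of a named class.

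**Figure D1:**
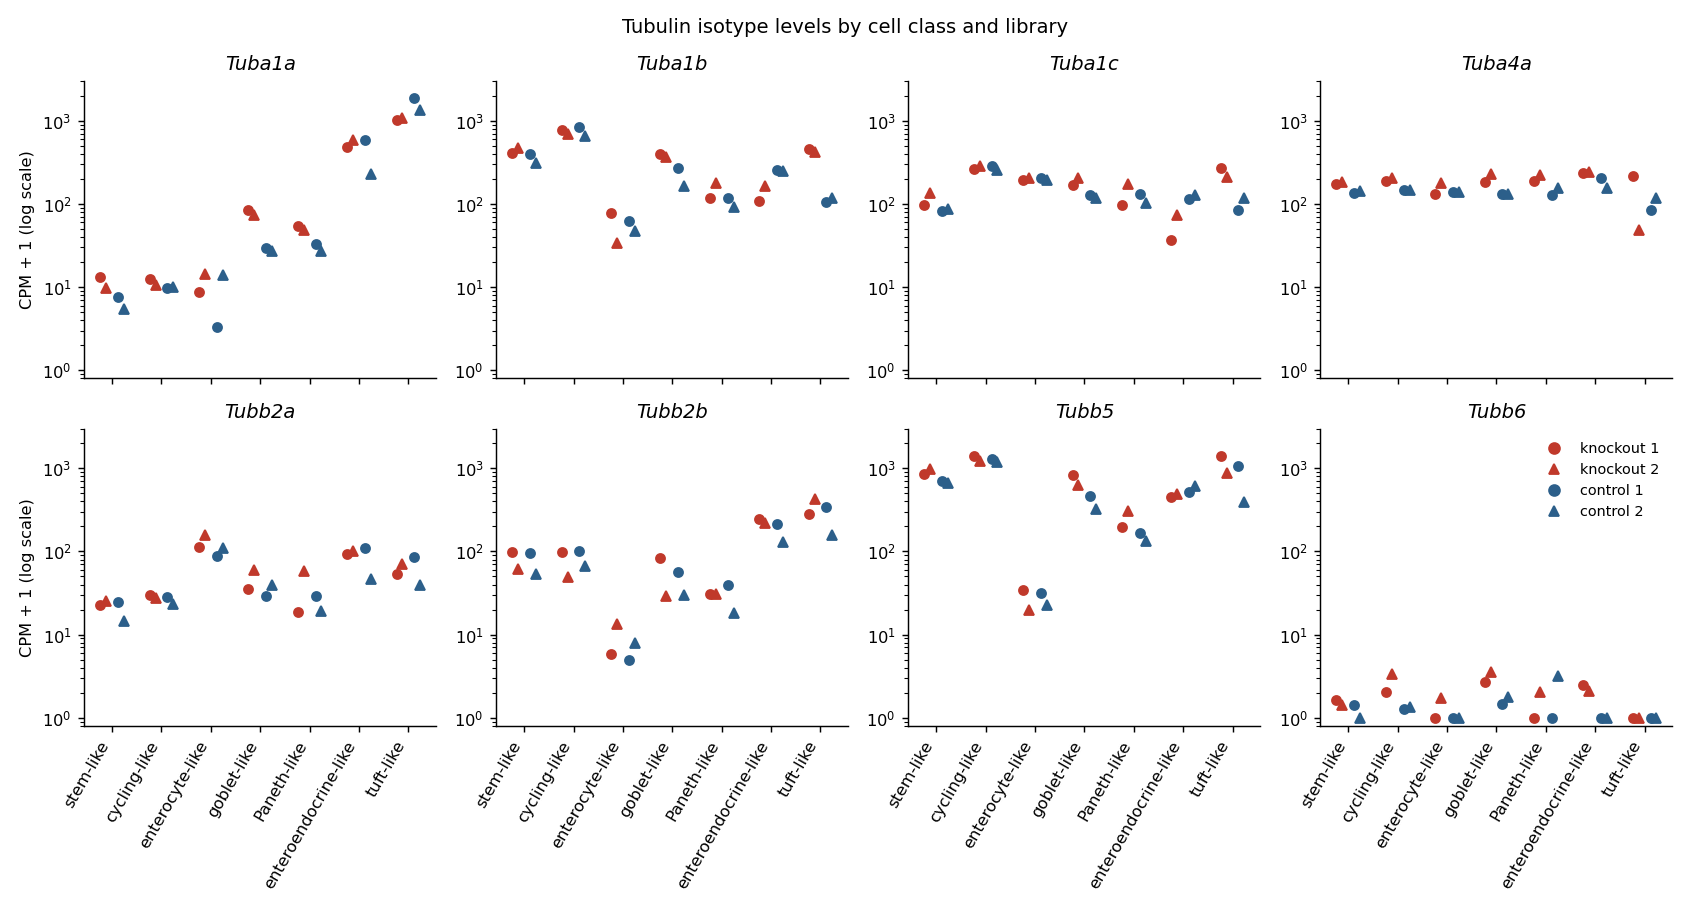
Level of each of the 8 members (CPM plus a pseudocount of 1, log axis) in 7 cell classes, with 1 point per library, knockouts in red left of controls in blue, circles for mouse 1 and triangles for mouse 2. Tuba1a is highest in tuft-like and enteroendocrine-like cells (means of 1337 and 467 CPM), Tuba1b and Tubb5 in cycling-like cells (740 and 1288 CPM), and Tubb2a in enterocyte-like cells (116 CPM).

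As shares of the family, the alpha balance of enteroendocrine-like cells rested on Tuba1a in every library but control 2, and that of dividing cells on Tuba1b. Tuba1b made up 62.2% and 58.1% of alpha tubulin UMIs in cycling-like cells of the knockouts, against 64.8% and 61.3% in those of the controls. In enterocyte-like cells the leading alpha isotype was Tuba1c, with 40.0% and 40.1% in the knockouts, against 41.4% and 40.7% in the controls. Tubal3, an alpha-tubulin-like gene that is not a member, made up another 15.1% and 15.9% there in the knockouts, against 17.4% and 17.4% in the controls, and at most 1.71% in any library of the other named classes. On the beta side, Tubb5 held 44.3% and 40.4% in cycling-like cells of the knockouts, against 47.6% and 47.2% in the controls, but only 3.55% and 1.52% in enterocyte-like cells of the knockouts, against 3.78% and 2.60% in the controls. Tubb2a held 11.9% and 12.6% of enterocyte-like beta tubulin in the knockouts, against 10.7% and 12.8% in the controls. The absorptive class was thus the one without Tubb5 as a main isotype, in every library.

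Enteroendocrine-like and tuft-like cells shared high shares of Tuba1a and Tubb2b, isotypes best known from neurons. In enteroendocrine-like cells Tuba1a held 55.7% and 54.8% of alpha tubulin UMIs in the knockouts, against 50.0% and 29.6% in the controls. Tubb2b held 18.9% and 14.3% of their beta tubulin in the knockouts, against 14.6% and 9.23% in the controls, and in tuft-like cells 10.1% and 16.5% in the knockouts, against 15.7% and 11.8% in the controls. Tubb3, the beta tubulin used as a marker of neurons, held 4.96% and 5.40% in the knockouts, against 4.88% and 4.18% in the controls, and at most 0.191% in any library of the other named classes. In tuft-like cells Tubb3 had 0 of 403 beta tubulin UMIs over the 4 libraries, which allows a share of up to 0.744%. Tuba1a and Tubb3 had r = 0.81 over the 24 sums, again as a description. Those sums leave out tuft-like cells, the class with the most Tuba1a, because too few cells were held by some libraries. The correlations with Tuba1a given here thus do not cover that class. Of 8067 genes, the 5 whose log level was most like that of Tuba1a over these sums were Ptprn2 (r = 0.96), Prox1 (r = 0.95), Cxxc4 (r = 0.95), Kcnb2 (r = 0.94) and Tle6 (r = 0.94). The 5 most like Tubb5 were Ptma (r = 0.99), Esf1 (r = 0.99), Stmn1 (r = 0.99), Pclaf (r = 0.99) and Pold2 (r = 0.99).

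**Figure D2:**
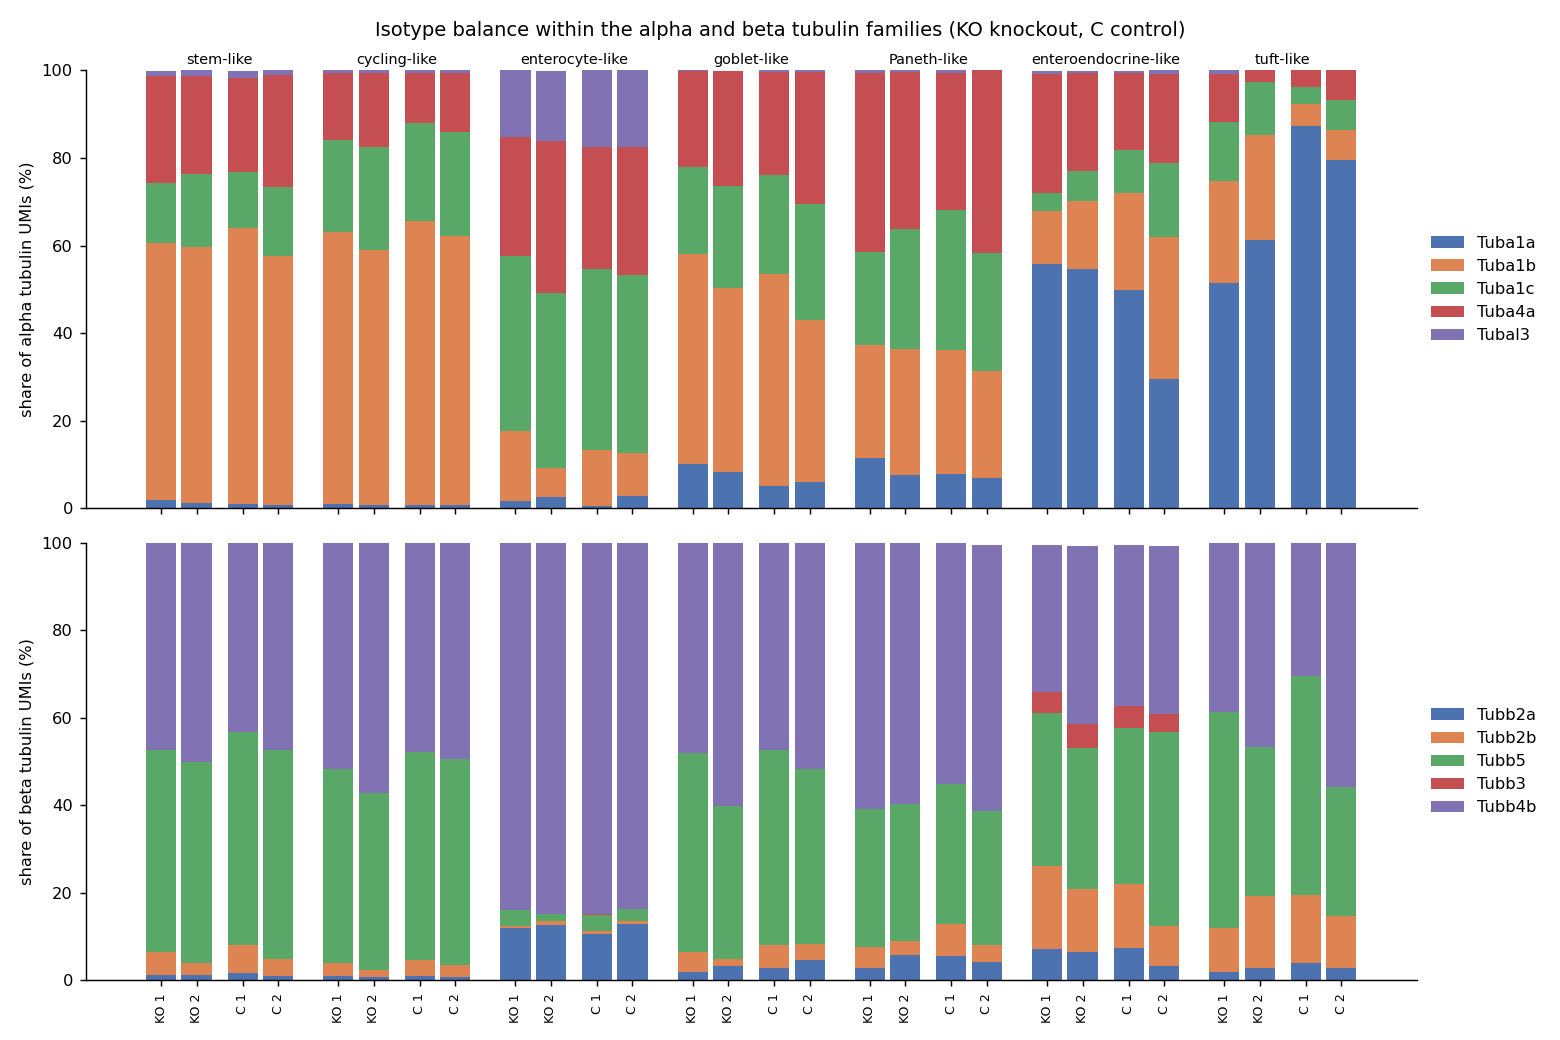
Share of alpha tubulin UMIs (top, %) and beta tubulin UMIs (bottom, %) held by each isotype in 7 cell classes, with a stacked bar per library, knockouts (KO 1, KO 2) left of controls (C 1, C 2). Tuba1b leads in stem-like and cycling-like cells, Tuba1c in enterocyte-like cells (40.0% and 40.1% in knockouts, 41.4% and 40.7% in controls), and Tuba1a in tuft-like cells and in 3 of the 4 enteroendocrine-like libraries.

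In goblet-like cells Tuba1a was at 84.5 and 72.5 CPM in knockouts 1 and 2, against 28.2 and 25.8 CPM in controls 1 and 2. These are the values that chose the gene, from 251 and 366 UMIs in the knockouts and 126 and 66 UMIs in the controls. Both knockouts stood above both controls, by 3.00-fold in mouse 1 and 2.81-fold in mouse 2, which is the pattern the gene was picked for. Exact 95% Poisson intervals, for counting error only, were 74.3 to 95.6 and 65.3 to 80.3 CPM in the knockouts. In the controls they were 23.5 to 33.6 and 19.9 to 32.8 CPM. The fitted log2 fold change was 1.44, and 1.45 with mouse as a block, given with no test. As a share of alpha tubulin, Tuba1a made up 10.1% and 8.28% in the knockouts, against 5.07% and 5.89% in the controls.

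The goblet-like class was made of 2 clusters, one led by Atoh1, Spdef and Dll1, the transcription factors and Notch ligand of secretory commitment. The other was led by Ccl9 and Ccl6, with Spink4, Fcgbp and Muc2, secreted products of goblet cells, also among its leading genes. In the score used to name clusters, this second one had 1.89 for goblet markers and 1.32 for Paneth markers, so it was not purely goblet. In the first, Tuba1a was at 84.8 and 66.1 CPM in the knockouts, against 29.8 and 33.3 CPM in the controls. In the second it was at 84.0 and 80.7 CPM in the knockouts, against 26.4 and 23.6 CPM in the controls. The clusters, and the shares of cells that follow, are cuts of the same values that chose the gene, so they add no separate support. With each cell thinned to 5000 UMIs, 19.7% and 27.3% of goblet-like cells in the knockouts held a Tuba1a UMI, against 9.49% and 11.3% in the controls, and unthinned shares were 46.5% and 50.9% against 30.2% and 33.3%. Median depths ran the other way, at 16957 and 18152 UMIs per cell in the knockouts, against 20708 and 28424.5 in the controls. In enterocyte-like cells, where Tuba1a is low, the thinned shares were 1.43% and 6.42% in the knockouts, against 0% and 3.08% in the controls.

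**Figure D3:**
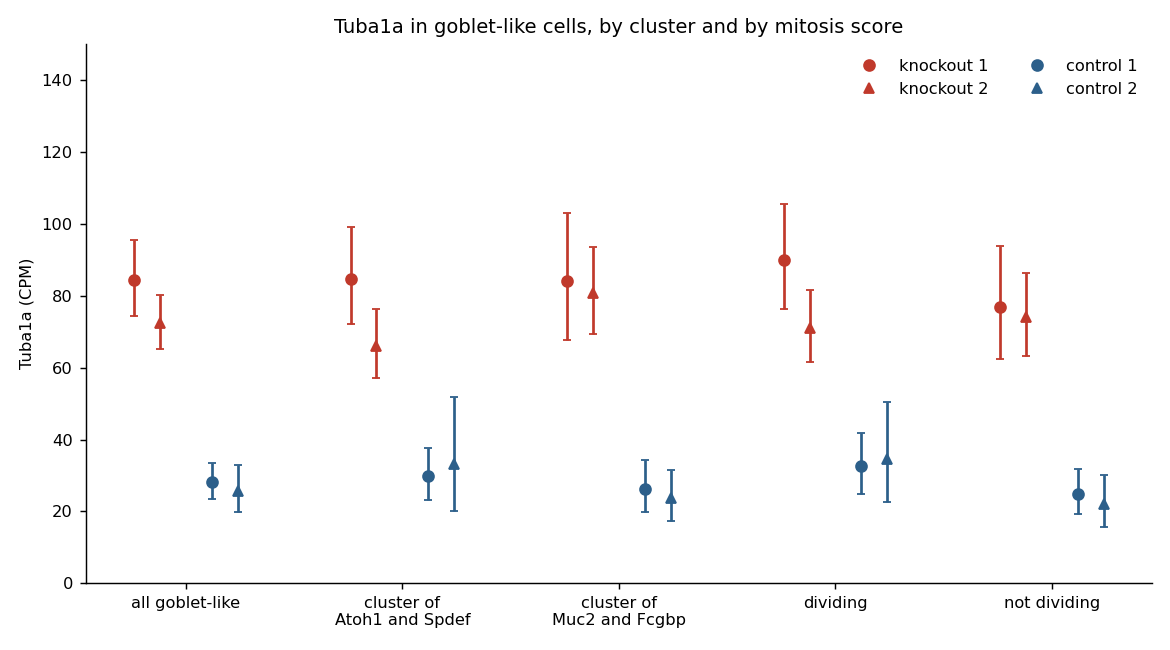
Tuba1a level (CPM, linear axis from 0) in all goblet-like cells, in each of their clusters, and in their dividing and not dividing cells, with 1 point per library, knockouts in red left of controls in blue, and exact 95% Poisson intervals as bars. Every knockout point lies above every control point, from 66.1 to 90.0 CPM in the knockouts and from 22.1 to 34.5 CPM in the controls.

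The other isotypes of goblet-like cells stood higher in the knockouts too. Tuba1b was at 399 and 368 CPM in the knockouts, against 269 and 163 CPM in the controls. Tubb5 was at 818 and 623 CPM in the knockouts, against 465 and 320 CPM in the controls, and Tubb4b at 864 and 1070 CPM against 494 and 415 CPM. All 7 members that passed the low-count filter had a positive log2 fold change with mouse as a block, with a median of 0.55 against -0.02 over all 10239 genes. Both knockouts stood above both controls for 6 of the 8 members, and for 30.6% of the 10239 genes tested. The blocked fit called 16.6% of these genes, and nothing is read from the members' count because the contrast chose Tuba1a. Tuba1c was at 166 and 203 CPM in the knockouts, against 126 and 115 CPM in the controls, and Tuba4a at 181 and 230 CPM against 131 and 132 CPM. Tubb6 reached 1.68 and 2.57 CPM in the knockouts, from 5 and 13 UMIs, against 0.447 and 0.781 CPM in the controls, from 2 UMIs each. Tubb2a and Tubb2b overlapped between the groups.

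Other gene groups differed between goblet-like cells of the 2 groups as well, and their values are given with no test. Summed over a list of 45 mitosis genes the knockouts had 3638 and 3603 CPM, against 2304 and 1771 CPM in the controls. With mouse as a block, the median log2 fold change was 0.70 over these genes, 44 of them positive, 0.55 over 26 DNA replication genes, 25 of them positive, 0.53 over the 17 tested targets of the stress factor p53, 11 of them positive, and 0.24 over 21 tested genes for tubulin folding, 17 of them positive. The summed Paneth markers had 49402 and 69397 CPM in the knockouts, against 75207 and 97085 CPM in the controls, and exceeded the summed goblet markers, which had 25304 and 36015 CPM against 30877 and 41502 CPM. The part of the Paneth-marker difference in the Tuba1a result was not tested, and levels in dividing and not dividing cells are given next. Enteroendocrine markers summed to 183 and 194 CPM in the knockouts, against 230 and 187 CPM in the controls. Tuft markers summed to 8.75 and 1.58 CPM in the knockouts, against 3.13 and 1.95 CPM in the controls. Both sums overlapped between the groups, and the part of these 2 classes in the Tuba1a result was not tested.

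Cells were called dividing where the mitosis list made up more than 13.7 of 10000 UMIs. By that rule 60 of 155 and 125 of 275 goblet-like cells of the knockouts were dividing, against 44 of 179 and 21 of 90 of the controls. The call cuts a range and marks no cell type: 42 of the 699 goblet-like cells lay within 25% of the cut. Among cells not dividing, Tuba1a was at 77.0 and 74.2 CPM in the knockouts, against 25.0 and 22.1 CPM in the controls. Among dividing cells it was at 90.0 and 71.1 CPM in the knockouts, against 32.6 and 34.5 CPM in the controls. The fitted log2 fold change of Tuba1a was 1.62 in the cells not dividing, again given with no test. Both kinds of cell are parts of the class whose values chose Tuba1a.

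Tuba1b and Tubb5 stood higher in dividing cells, and within each kind of cell both knockouts stood above both controls. Tuba1b was at 591 and 557 CPM in dividing goblet-like cells of the knockouts and 515 and 384 CPM in those of the controls, but at 138 and 133 CPM in not dividing cells of the knockouts and 91.9 and 70.8 CPM in those of the controls. Tubb5 was at 1215 and 931 CPM in dividing cells of the knockouts and 847 and 786 CPM in those of the controls, but at 279 and 239 CPM in not dividing cells of the knockouts and 190 and 126 CPM in those of the controls. For both genes every dividing value stood above every value of cells not dividing. Tuba4a was at 208 and 258 CPM in dividing cells of the knockouts and 184 and 215 CPM in those of the controls, but at 145 and 195 CPM in not dividing cells of the knockouts and 92.7 and 97.4 CPM in those of the controls. Tuba1c had 231 and 275 CPM in dividing cells of the knockouts and 223 and 228 CPM in those of the controls, against 77.8 and 114 CPM and 55.8 and 68.1 CPM in their not dividing cells. The Tubb6 UMIs of goblet-like cells all came from dividing cells. Tubb2b showed no such order: dividing cells of the knockouts had 76.5 and 22.5 CPM and those of the controls 61.5 and 47.8 CPM, while not dividing cells had 91.3 and 35.1 CPM in the knockouts and 52.7 and 21.6 CPM in the controls.

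In stem-like cells the split by division was less sharp, with 131 of the 654 cells within 25% of the cut. Tubb5 was at 953 and 1097 CPM in their dividing cells in the knockouts and 817 and 730 CPM in the controls, and at 718 and 794 CPM in not dividing cells of the knockouts and 585 and 556 CPM in those of the controls. Tuba1b was at 461 and 537 CPM in dividing cells of the knockouts and 475 and 368 CPM in those of the controls, and at 349 and 375 CPM in not dividing cells of the knockouts and 323 and 233 CPM in those of the controls. Within each library both genes were higher in the dividing cells. Tuba1a stayed low either way, at 15.4 and 9.04 CPM in dividing cells of the knockouts and 5.99 and 4.60 CPM in those of the controls, and at 8.71 and 8.31 CPM in not dividing cells of the knockouts and 7.09 and 4.31 CPM in those of the controls. The mitosis list is independent of the tubulins, but its cells were sorted by expression, so these splits are descriptions.

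**Figure D4:**
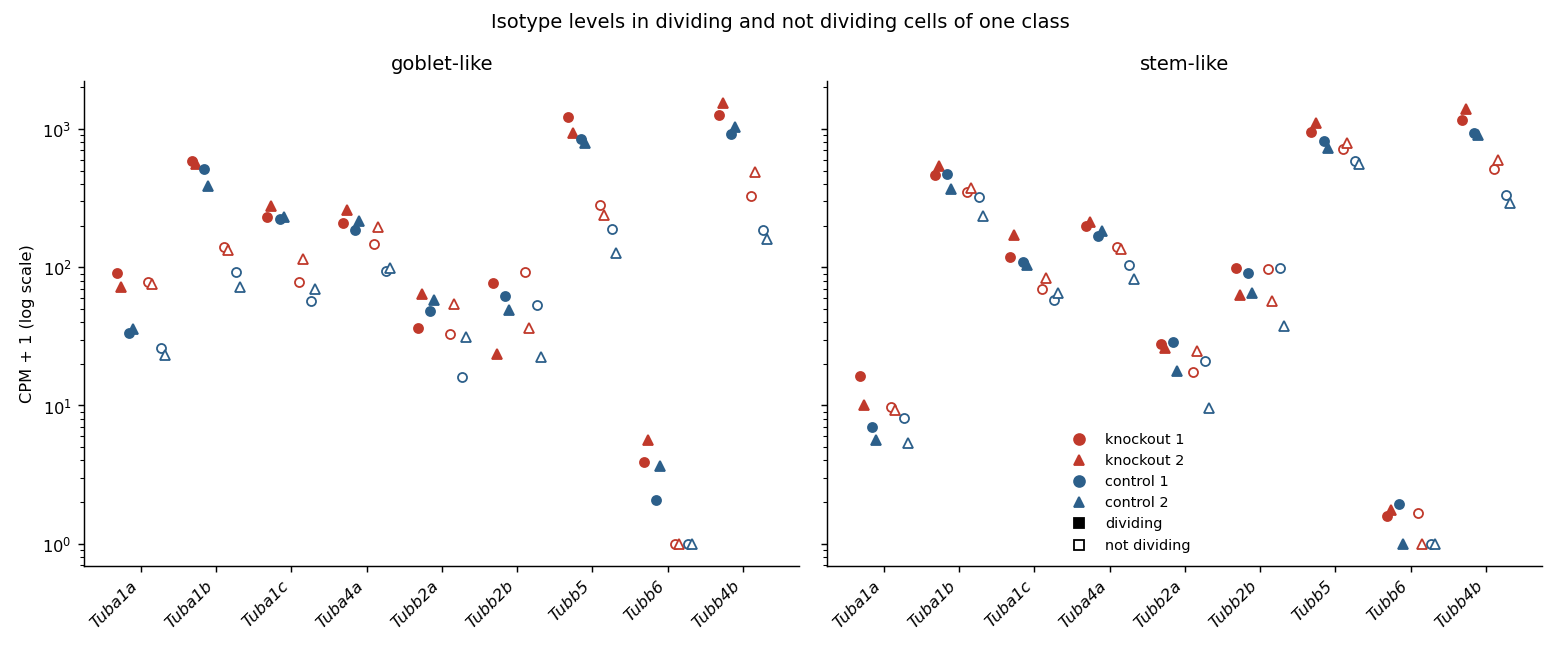
Levels of the 8 members and Tubb4b (CPM plus 1, log axis) in dividing cells (filled) and not dividing cells (open) of the goblet-like and stem-like classes, with 1 point per library, knockouts in red left of controls in blue. In goblet-like cells Tuba1b and Tubb5 stand higher in dividing than in not dividing cells of every library, and in both kinds of cell Tuba1a (71.1 to 90.0 CPM in knockouts, 22.1 to 34.5 CPM in controls), Tuba1b and Tubb5 stand higher in both knockouts than in both controls.

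Outside the goblet-like class, knockout was compared with control by edgeR's quasi-likelihood test on UMI sums, with Benjamini-Hochberg adjustment over all genes tested. With group alone in the fit, no member passed an adjusted p of 0.05 in any comparison, and DESeq2 called 0 in each. At an unadjusted p under 0.05 there were 3 members in Paneth-like cells, where 452 of 6558 genes had such a p. There were 2 each in stem-like cells (593 of 9908 genes), cycling-like cells (879 of 11418) and enteroendocrine-like cells (374 of 8251). There were 0 in enterocyte-like cells (237 of 9194) and in all cells summed (1138 of 13246). That fit called 0.0101% of all genes in stem-like cells, 0.0152% in Paneth-like cells, 0.117% in goblet-like cells and 0% in each other comparison. Because same-numbered libraries came from the same mouse, each comparison was also fitted with mouse as a block, which removes the difference between mice. The verbs rose and fell below refer to that blocked fit, which has 1 residual degree of freedom among samples. Its p-values therefore rest mainly on spread shared across genes, and a small one does not measure how closely a gene's own libraries agree.

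Over all cells except the goblet-like ones, Tubb6 and Tuba4a rose, 2 of the 8 members, where 14.5% of 13010 genes were called and 4.72% were higher in the knockouts. Tuba4a was at 179 and 203 CPM in the knockouts, against 142 and 157 CPM in the controls, a log2 fold change of 0.31 ± 0.08 (SE, edgeR adjusted p = 0.0464). Tubb6 was at 0.806 and 3.29 CPM in the knockouts, against 0.219 and 0.777 CPM in the controls, and rose by 1.96 ± 0.38 (adjusted p = 0.0191). Knockout 1 and control 2 were close to each other in Tubb6, so the groups separated by little without the block. Tuba1a was at 28.0 and 41.9 CPM in the knockouts, against 35.1 and 21.1 CPM in the controls, with overlap (0.28 ± 0.27, adjusted p = 0.514). Tubb5 was at 1057 and 877 CPM in the knockouts, against 851 and 656 CPM in the controls (0.32 ± 0.09, adjusted p = 0.0505). Such sums mix the classes: cycling-like cells were 38.2% and 37.5% of knockout cells, against 30.6% and 25.4% of control cells, and enterocyte-like cells 7.13% and 13.4% against 15.2% and 36.5%. The part of these shares in the summed values was not tested, and fewer cells of a type and less RNA per cell cannot be told apart in them.

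With goblet-like cells included, 3 of 8 members rose, where 11.9% of 13246 genes were called and 4.10% were higher in the knockouts. These sums hold the goblet-like values that chose Tuba1a, so nothing is read from that count. Tubb5 joined Tubb6 and Tuba4a, at 1032 and 840 CPM in the knockouts, against 788 and 617 CPM in the controls (0.38 ± 0.09, adjusted p = 0.0442). The median log2 fold change of the 8 members was 0.32, against -0.01 over all genes. It includes Tuba1a, which had 0.50 here and 0.28 without goblet-like cells. Among tubulins that are not members, Tubb4b rose, with 1208 and 1341 CPM in the knockouts, against 883 and 892 CPM in the controls (0.48 ± 0.09, adjusted p = 0.0290). Tubal3 fell by 0.71 ± 0.12 (adjusted p = 0.0201), at 11.0 and 13.6 CPM in the knockouts, against 16.0 and 23.6 CPM in the controls. Within enterocyte-like cells, where its level was highest, Tubal3 was at 71.8 and 80.8 CPM in the knockouts, against 84.5 and 81.6 CPM in the controls (adjusted p = 0.938).

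In cycling-like cells the alpha isotype Tuba4a and the beta isotypes Tubb6 and Tubb4b rose while the main isotypes Tuba1b and Tubb5 showed no called change. Tuba4a was at 190 and 202 CPM in the knockouts, against 146 and 146 CPM in the controls (log2 fold change 0.39 ± 0.07, edgeR adjusted p = 0.00309). Tubb6 was at 1.07 and 2.40 CPM in the knockouts, from 15 and 40 UMIs, against 0.263 and 0.356 CPM in the controls, from 3 UMIs each (2.36 ± 0.53, adjusted p = 0.0124). Tuba4a and Tubb6 were 2 of 8 members, where 7.64% of 11418 genes were called and 3.40% were higher in the knockouts. Tubb4b was at 1638 and 1749 CPM in the knockouts, against 1309 and 1257 CPM in the controls (0.36 ± 0.06, adjusted p = 0.00131). Tuba1b was at 775 and 698 CPM in the knockouts, against 828 and 660 CPM in the controls (-0.04 ± 0.06), and Tubb5 at 1406 and 1238 CPM against 1306 and 1204 CPM (0.04 ± 0.06). Tuba1a was at 11.5 and 9.64 CPM in the knockouts, against 8.86 and 9.02 CPM in the controls (0.21 ± 0.16, adjusted p = 0.499). With DESeq2 and the block the adjusted p was 0.0813 for Tuba4a and 0.765 for Tubb6. The class pools several clusters in unequal mixture. One led by Slc7a11, Psph and Phlda3 held 82 of 621 and 380 of 713 cells in the knockouts, against 19 of 351 and 76 of 173 in the controls. The part of this mixture in the cycling-like values was not tested.

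Shares within each family differed in the same direction in cycling-like cells. Tubb4b held 51.7% and 57.1% of beta tubulin UMIs in the knockouts, against 47.7% and 49.3% in the controls, and Tubb5 was lower by 5.06 percentage points in the knockouts. Tuba4a held 15.2% and 16.8% of alpha tubulin in the knockouts, against 11.4% and 13.6% in the controls, a difference of 3.51 percentage points. The groups did not overlap in any of the 3 shares, and the exact permutation p was 0.333 for each, the smallest that 2 libraries against 2 allow. Beta tubulin UMIs per alpha tubulin UMI were 2.54 and 2.55 in the knockouts, against 2.15 and 2.37 in the controls. That ratio was higher in both knockouts than in both controls in 6 of the 7 named classes, among them stem-like cells, at 2.63 and 2.64 in the knockouts against 2.28 and 2.50 in the controls, and enterocyte-like cells, at 1.96 and 2.44 against 1.68 and 1.80. In enteroendocrine-like cells it overlapped, at 1.49 and 1.43 in the knockouts, against 1.25 and 1.82 in the controls. The classes come from the same libraries, so they are not separate observations, and the ratio was not tested. Among the 6 are goblet-like cells, whose values chose Tuba1a, and tuft-like cells, with 34 to 158 beta tubulin UMIs a library.

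In stem-like cells Tubb5 rose, 1 of the 7 members tested, where 2.73% of 9908 genes were called and 0.908% were higher in the knockouts. It was at 844 and 970 CPM in the knockouts, against 695 and 658 CPM in the controls (0.35 ± 0.09, edgeR adjusted p = 0.00374). This call held in 1 of the 5 blocked fits run, and the adjusted p reached 0.475 with cells clustered in another way. Tubb4b was at 863 and 1058 CPM in the knockouts, against 621 and 650 CPM in the controls (0.52 ± 0.09, adjusted p = 8.27e-07), in all 5 blocked fits. Tuba1a was at 12.3 and 8.73 CPM in the knockouts, against 6.57 and 4.48 CPM in the controls (0.85 ± 0.32, adjusted p = 0.159). Its level was among the lowest of any class. Tuba1b was at 409 and 469 CPM in the knockouts, against 395 and 312 CPM in the controls (0.22 ± 0.09, adjusted p = 0.232). Dividing cells were 151 of 321 and 71 of 134 in the knockouts, against 65 of 169 and 19 of 30 in the controls, and Tubb5 was also higher in both knockouts among the cells not dividing.

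In Paneth-like cells Tubb5 rose as well, again 1 of 7 members tested, where 1.91% of 6558 genes were called and 1.02% were higher in the knockouts. It was at 198 and 308 CPM in the knockouts, against 165 and 133 CPM in the controls (0.67 ± 0.16, edgeR adjusted p = 0.00427), and the call held in 4 of 5 blocked fits. Tubb4b was at 382 and 583 CPM in the knockouts, against 285 and 265 CPM in the controls (0.71 ± 0.16, adjusted p = 0.00107). Knockout 2 was the highest library for both genes. It was also highest for the summed mitosis list, with 606 and 1169 CPM in the knockouts, against 795 and 531 CPM in the controls, and the part of dividing cells in this result was not tested. Tuba1a was at 52.7 and 47.4 CPM in the knockouts, against 31.7 and 26.0 CPM in the controls (0.74 ± 0.24, adjusted p = 0.0848). It was called in 2 of the 5 blocked fits. DESeq2 with the block gave an adjusted p of 0.9995 for all 3 genes.

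In enterocyte-like cells no member was called in either edgeR fit, where the blocked fit called 2.31% of 9194 genes, and DESeq2 called 0. At an unadjusted p under 0.05 there were 2 of 7 members with the block, and 1050 of all 9194 genes. Without the block there were 0 members and 237 genes. Tubb2a, most abundant in this class, was at 111 and 157 CPM in the knockouts, against 87.6 and 108 CPM in the controls (0.48 ± 0.15, adjusted p = 0.0570). Both knockouts stood just above both controls. Tuba1a was at 7.76 and 13.5 CPM in the knockouts, against 2.35 and 13.1 CPM in the controls, a pattern that followed the mouse (0.39 ± 0.34, adjusted p = 0.770). The difference between the knockout effect in cycling-like and in enterocyte-like cells was tested for 7 members, and none was called (0% of 11685 genes called). At an unadjusted p under 0.05 there were 0 members and 553 genes. For Tuba4a that difference was 0.27 ± 0.24 on the log2 scale and for Tubb5 0.17 ± 0.31, each with an adjusted p of 1.

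In enteroendocrine-like cells the alpha isotypes differed in direction: Tuba1b and Tuba1c stood lower in both knockouts and Tuba4a higher. Tuba1b was at 106 and 165 CPM in the knockouts, against 256 and 246 CPM in the controls (-1.02 ± 0.24, edgeR adjusted p = 0.154). Tuba1c was at 35.8 and 72.2 CPM in the knockouts, against 113 and 128 CPM in the controls (-1.31 ± 0.28, adjusted p = 0.107). Tuba4a was at 234 and 239 CPM in the knockouts, against 203 and 155 CPM in the controls (0.31 ± 0.22, adjusted p = 0.953). None of these genes passed the threshold: 0 of 7 members were called, DESeq2 called 0, and the blocked fit called 0.158% of 8251 genes. At an unadjusted p under 0.05 the blocked fit had 2 members and 465 of the 8251 genes. The groups did not overlap in any of these genes, which by itself has an exact permutation p of 0.333. The share of all genes that separate so was not counted in this class. Control 2 held only 11 such cells. Mitosis genes stood lower too, with a sum of 886 and 839 CPM in the knockouts, against 1851 and 2329 CPM in the controls, and 4 of 29 tested fell. Enterocyte markers summed to 916 and 1411 CPM in the knockouts, against 2351 and 3220 CPM in the controls. The part of these differences in the alpha tubulin values was not tested. The share of Tuba1a was higher by 15.5 percentage points in the knockouts (exact permutation p = 0.333), and by 4.08 points when each cell counted equally. Most of the first difference came from control 2, whose share was far below that of control 1.

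**Figure D5:**
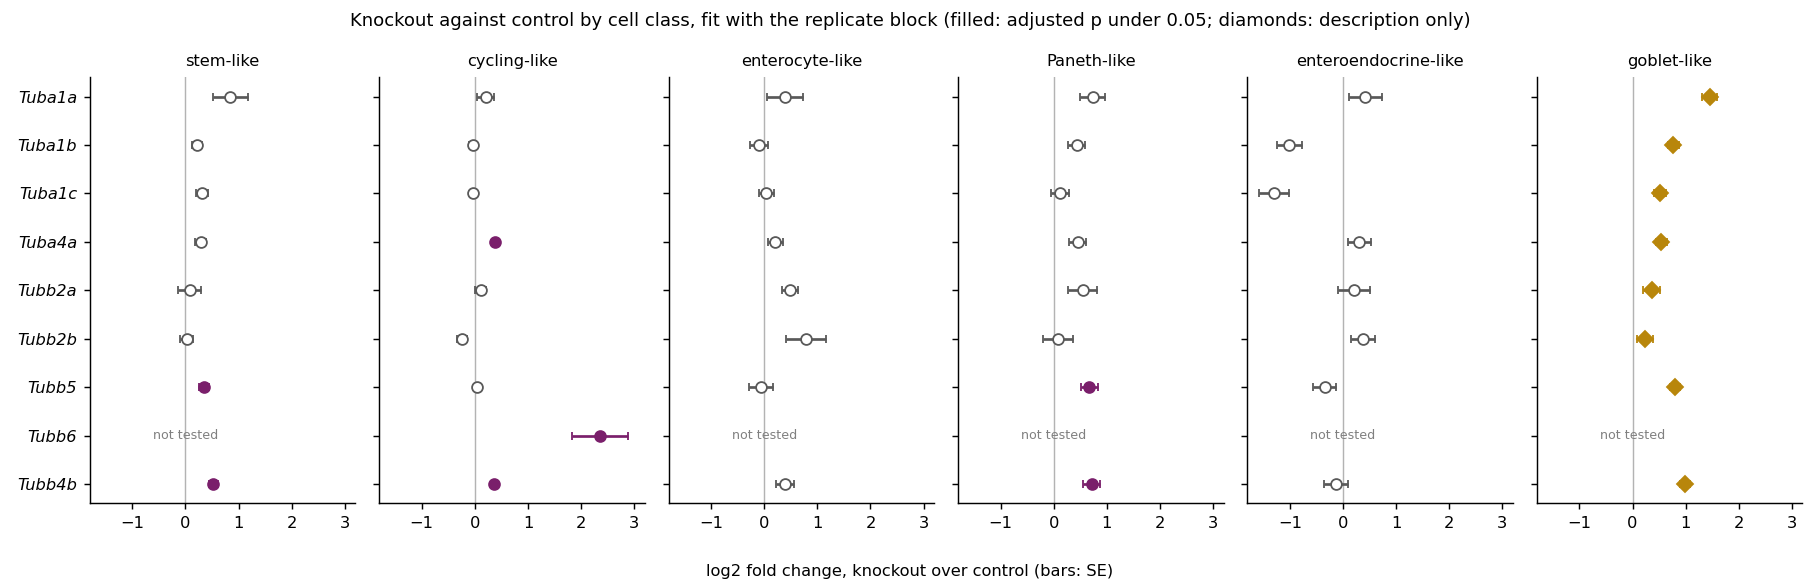
Log2 fold change of knockout over control with its standard error for the 8 members and Tubb4b in 6 cell classes, from the fit with mouse as a block; filled points have an adjusted p under 0.05, and diamonds, in goblet-like cells, are a description with no test. Tubb5 is called in stem-like and Paneth-like cells, Tuba4a and Tubb6 in cycling-like cells, and Tuba1b and Tuba1c lie lowest in enteroendocrine-like cells at -1.02 and -1.31.

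Tuft-like cells, 31 in all, were too few for a fit. Tuba1b was at 462 and 423 CPM in their knockout cells, against 106 and 116 CPM in control cells, and Tuba1a made up 51.4% and 61.3% of alpha tubulin UMIs in the knockouts, against 87.4% and 79.5% in the controls. Top2a, a gene of dividing cells, was at 320 and 329 CPM in the knockouts, against 21.1 and 0 CPM in the controls, from the same few cells.

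Genes that act on tubulin were read from lists in the same blocked fits. Of 21 tested genes for tubulin folding, 2 rose and 0 fell in all cells summed, where 11.9% of genes were called: Cct3 by 0.36 (edgeR adjusted p = 0.0442) and Cct8 by 0.37 (adjusted p = 0.0409), both subunits of the chaperonin that folds actin and tubulin. Of 12 genes for the gamma-tubulin ring and related tubulins, 1 rose, Tubg1, which nucleates microtubules (0.33 ± 0.08, adjusted p = 0.0449). Of 15 tested tubulin-modifying enzymes 1 fell, Agtpbp1, which trims glutamate chains from tubulin tails: by 1.43 ± 0.15 in all cells (adjusted p = 0.00560) and by 0.67 in enterocyte-like cells (adjusted p = 0.00752). Of 29 tested microtubule regulators Fignl1 rose (0.77, adjusted p = 0.0109) and Mtus1, a microtubule-associated protein, fell by 0.38 (adjusted p = 0.0331). In cycling-like cells Fignl1 and Mapre2, a protein that binds growing microtubule ends, rose by 0.47 and 0.40 (adjusted p = 0.00890 and 0.0295), and Mtus1 fell by 0.34 (adjusted p = 0.0312). None of the 3 genes for tubulin messenger autoregulation was called in any class. The medians of these lists lay between -0.02 and 0.15 in all cells. The mitosis list had 11 of 45 genes higher in all cells summed and 0 lower, with a median of 0.31, but 2 of 45 in cycling-like cells, with a median of -0.01. Its largest increases in all cells were those of the spindle genes Gtse1, Psrc1 and Ckap2, by 0.93, 0.78 and 0.63 on the log2 scale (adjusted p = 0.0182, 0.0412 and 0.0240), while in enteroendocrine-like cells Top2a, Ube2c and Ccnb1 fell, with log2 fold changes of -2.27, -2.24 and -2.23 (adjusted p = 0.0179, 0.000510 and 0.0337). Gtse1 and Psrc1 are also on the p53 list. The DNA replication list had 22 of 26 genes higher in all cells summed and 0 lower, with a median of 0.44, and 1 of 26 higher in cycling-like cells, with a median of 0.10. Its largest increases in all cells were those of the nuclease gene Exo1, the helicase subunit Mcm3 and the reductase subunit Rrm2, by 0.65, 0.64 and 0.63 (adjusted p = 0.0240, 0.00893 and 0.0183). The p53 list had 10 of 20 genes higher in all cells summed and 2 lower, with a median of 0.61, and 15 of 20 higher in cycling-like cells and 0 lower, with a median of 0.86. Its largest increases in all cells were those of Ddit4l, Phlda3 and Eda2r, by 3.06, 1.97 and 1.69 (adjusted p = 0.00404, 0.00133 and 0.0320). The part of these groups in the tubulin values was not tested.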

How the data were processed

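Single-cell RNA of 4 organoid libraries was measured by droplet sequencing. The deposited files hold raw UMI counts per gene and barcode, per the file headers. Per the submitters' processing notes the authors used Cell Ranger 3.0.1 and mm10. Whether reads were tagged at the 3′ or 5′ end, and whether strand was used, is not given in the sources used here.

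Barcodes with fewer than 500 genes (173 of 5602) and 70 predicted doublets (1.25%) were removed. The doublet caller's own cut marked 18 (0.321%), so a fixed expected rate was used. The 5359 cells were clustered with scanpy 1.11.5 (2000 variable genes without 25 tubulin genes, 30 components, 15 neighbours, resolution 1) and named from marker lists; a cluster needed 3 or more detected markers. A cluster of 163 cells with Zg16, Clca1 and Clu was left unnamed because its leading genes went against the name. The other unnamed clusters, of 276 and 378 cells, had best marker scores of 0.374 and 0.339, below the 0.5 needed. Median depths of kept cells were 16071 and 17505.5 UMIs in the knockouts, against 19555 and 27457.5 in the controls.

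Counts were summed per class and library, for classes with 10 or more cells in each library, and tested with edgeR 4.0.16 (limma 3.58.1, R 4.3.3; filterByExpr, TMM, glmQLFit, Benjamini-Hochberg, threshold 0.05), group only, over all genes; DESeq2 1.42.0 was an alternative. The SE is the log2 fold change over the square root of F. Testing was checked on simulated data. Shares were compared with exact two-sided permutation tests, whose smallest p is 0.333. The same p holds for any gene whose groups do not overlap. The share of all genes with both knockouts above both controls was counted in goblet-like cells only. Libraries with the same number came from the same mouse, per the labels' protocols, and their deviations from the group means correlated with r from 0.0767 in enteroendocrine-like cells to 0.748 in all cells. Counts of libraries of 1 group differed by more than sampling noise. P-values of the fits refer to the spread between these libraries, 1 per mouse and condition. The fits estimate that spread with information shared across all genes tested. The blocked fit leaves 1 residual degree of freedom, so its p-values rest mainly on that shared spread. Intervals and floors (3 counts) cover counting error only.

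Promoter sequences come from RefSeq (GRCm38.p6), and coordinates from GENCODE M21, which matched 30921 of 31040 features. No protein sequence was used here. The members, gene lists and tests were chosen with earlier results of these data known. Named genes were the 8 members, the other alpha and beta tubulins detected, up to 3 genes per list with the largest change past the blocked threshold, and the 5 genes most correlated with Tuba1a and with Tubb5 among those averaging at least 10 CPM; Top2a in tuft-like cells was chosen after its values were seen.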

Additional observations from a re-analysis of the deposited data

Results flagged for a closer look

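Tuba1b, Tuba1c and Tubb5 stood lower in both knockouts in enteroendocrine-like cells and higher in both in stem-like cells. Tuba1b and Tubb5 also stood higher in both knockouts in Paneth-like cells. These members were picked because their groups did not overlap in those classes, in opposite directions. None of them was called in enteroendocrine-like cells in the blocked fit. The share of all genes that reverse so was not counted, and the difference between classes was not tested. For Tuba1b the mean CPM of knockouts over that of controls was 1.24 in stem-like and 1.43 in Paneth-like cells, with both knockouts above both controls, but 0.539 in enteroendocrine-like cells, with both knockouts below both controls. For Tuba1c it was 1.36 in stem-like and 0.449 in enteroendocrine-like cells. For Tubb5 it was 1.34 in stem-like, 1.70 in Paneth-like and 0.836 in enteroendocrine-like cells. Control 2 had 11 enteroendocrine-like cells, and the calls in this class depended on which library was left out.

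An unnamed cluster outside the comparisons, led by Zg16 and Clca1, which goblet cells express, together with Clu, Anxa1 and Ly6d, held 5 and 100 cells of the knockouts and 10 and 48 of the controls. There Tuba1a was at 46.5 and 128 CPM in the knockouts, against 6.18 and 51.3 CPM in the controls, above enterocyte-like and cycling-like cells in 3 of the 4 libraries. Tubb6 was at 0 and 18.5 CPM in the knockouts, against 0 and 4.105 CPM in the controls, so both libraries of mouse 2 held it and neither of mouse 1 did. Unnamed clusters supplied 51 of the 110 Tubb6 UMIs of knockout 2 and 10 of the 17 of control 2 in the all-cell sums, against 0 in both libraries of mouse 1.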

How the results depend on the processing

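With group alone, 0 members passed in each tested comparison. With the replicate block (mouse) the number was 3 in all cells, 2 without goblet-like cells, 1 in stem-like, 2 in cycling-like and 1 in Paneth-like cells, and the block changed no other member's call. DESeq2 with the block called 1 member, Tubb5, in all cells, where 6.58% of genes were called. Without goblet-like cells it also called 1, Tubb5, where 7.18% were called. Its adjusted p for Tubb6 was NA in both. The blocked fits were repeated after reclustering at resolution 0.5, at resolution 2 and without removing doublets. In cycling-like cells each called 2 members (Tuba4a and Tubb6), where 5.98%, 5.44% and 5.40% of all genes tested were called. In enterocyte-like cells each called 1 (Tubb2b), where 1.94%, 2.56% and 2.16% were called. In Paneth-like cells they called 3, 1 and 4, where 1.71%, 1.24% and 2.23% were called. Without a low-count filter and without the block, 1 member passed in cycling-like cells (Tubb6), where 1.80% of all genes tested were called. In enteroendocrine-like cells 2 passed (Tuba1b and Tuba1c), where 0.666% were called. Leaving out 1 library at a time changed which members passed in Paneth-like and enteroendocrine-like cells. Those fits left a single library in 1 group, so their calls are not counted here. A library left alone in its group is assumed to vary like the other group. The cause of these differences was not tested.

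Of Tuba1a, leaving out 1 library turned the log2 fold change round outside goblet-like cells, which ran from -0.081 without knockout 2 to 0.66, in enterocyte-like cells, from -0.17 to 2.32, in enteroendocrine-like cells, from -0.15 without control 2 to 1.11, and in the cycling-like minus enterocyte-like difference, from -2.06 to 0.45. In goblet-like cells it stayed between 1.399 and 1.498 with 1 library left out, and was 1.62 without dividing cells, also with the replicate block. Goblet-like fits were also run after reclustering, and that range does not cover them. The goblet-like share of cells with a Tuba1a UMI was higher in the knockouts by 13.1 percentage points at 5000 UMIs per cell and 26.5 at 10000, and the enteroendocrine-like Tuba1a share by 15.5 points over sums and 4.08 as a mean over cells. Over the members, 50 of 264 values changed sign without 1 library and 23 of 529 under other settings, 0 of them called.

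With 2 libraries a group, 11 enteroendocrine-like cells in control 2 and 31 tuft-like cells in all, depth and replicates limit these comparisons: Tubb6 rests on 7 to 110 UMIs a library over all cells, and Tuba1a on 5 to 79 UMIs a library in stem-like and enterocyte-like cells.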
